A study of Mus musculus with 9 samples.

Results

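The insulin-like growth factor (IGF) system of PyMT mammary tumors was described through 10 genes, taken by symbol from the 55401 mouse genes of the count table: the ligands Igf1 and Igf2, the receptors Igf1r and Igf2r, and the binding proteins Igfbp2 to Igfbp7. Tumors lacking Hspa1a and Hspa1b, the neighbouring genes for the inducible chaperone HSP72, gave 5 libraries (KO, genotype Hspa1a/Hspa1b-/-, animals 120 to 125 days old). Tumors with both genes intact gave 4 libraries (WT, genotype Hspa1a/Hspa1b+/+, 122 to 132 days old). All animals were female, on a C57BL/6 background, and carried a human MUC1 transgene together with the polyoma middle T oncogene under the MMTV promoter, which is active in mammary epithelium. The labels name knockout mice and give no cell type to which the deletion was limited, and tumors were dissociated with collagenase and trypsin before RNA was extracted. The labels number the tumor samples but not the animals; the libraries have 4 distinct ages in KO and 3 in WT, and whether each came from its own animal is not stated. The p-values cover the spread from one tumor sample to the next.

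IGF1 and IGF2 are secreted peptides that signal through the tyrosine kinase receptor IGF1R to the PI3K-AKT and MAPK pathways and promote growth and survival. IGF2R, the cation-independent mannose 6-phosphate receptor, carries lysosomal enzymes and takes up IGF2 for degradation without a kinase of its own. The binding proteins hold IGFs in the extracellular space, and proteases release them again. In the mammary gland IGF1 comes largely from stroma and from the circulation, while IGFBP5 is known as an epithelial product that increases as the gland involutes after lactation.

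Both targeted genes were low in every KO library. Hspa1b had 6 counts over the KO libraries and 1043 over the WT libraries, and Hspa1a had 23 counts in KO and 139 in WT, with sequences so alike that reads may be divided between them uncertainly. Each library had 4410399 to 6221181 fragments counted on genes. Levels are given in CPM, counts scaled to 1000000 counts of tested genes per library, and the limit set by a count of 0, taken as 3 counts of the gene total for counting error alone, lay between 0.482 and 0.680 CPM. Luminal epithelial markers summed to 3746 to 4731 CPM in KO and 4062 to 7707 CPM in WT, and all 13 of them passed the count filter. Over all 14665 genes tested with edgeR's quasi-likelihood test, 13 were called at an adjusted p under 0.05, which is 0.0886% (0.0341% lower and 0.0546% higher in KO). The library WT 1 stood apart: it was the highest of the 9 libraries for 19.5% of the genes tested, and the fold changes of all tested members are given with and without it.

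Promoter sequences were matched in the RefSeq table (GRCm38.p6) for all 10 members, and the 250 bases before the transcript start are shown for 4 binding protein genes. Igfbp5 is the most abundant member, Igfbp2 is its neighbour on chromosome 1, and Igfbp4, Igfbp7 and Igfbp2 had the smallest p-values between the genotypes. Each is written 5′ to 3′ on its own strand, and capitals mark matches to the motifs searched.
Igfbp5, chr1:72874866-72875115, minus strand: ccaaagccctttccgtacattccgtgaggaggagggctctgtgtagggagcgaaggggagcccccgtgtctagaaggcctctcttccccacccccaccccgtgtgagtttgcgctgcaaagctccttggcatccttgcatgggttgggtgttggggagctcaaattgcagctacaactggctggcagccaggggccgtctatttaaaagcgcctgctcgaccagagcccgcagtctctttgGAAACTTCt
Igfbp2, chr1:72824230-72824479, plus strand: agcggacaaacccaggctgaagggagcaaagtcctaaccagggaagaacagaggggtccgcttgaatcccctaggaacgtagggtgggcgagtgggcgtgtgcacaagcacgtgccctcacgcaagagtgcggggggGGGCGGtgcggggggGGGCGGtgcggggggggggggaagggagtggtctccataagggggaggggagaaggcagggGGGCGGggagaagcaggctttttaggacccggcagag
Igfbp4, chr11:99040994-99041243, plus strand: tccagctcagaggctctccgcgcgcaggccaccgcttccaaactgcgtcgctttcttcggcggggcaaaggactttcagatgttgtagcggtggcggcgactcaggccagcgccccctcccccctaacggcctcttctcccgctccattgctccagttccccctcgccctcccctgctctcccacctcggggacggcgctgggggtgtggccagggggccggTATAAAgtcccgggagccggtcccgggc
Igfbp7, chr5:77408046-77408295, minus strand: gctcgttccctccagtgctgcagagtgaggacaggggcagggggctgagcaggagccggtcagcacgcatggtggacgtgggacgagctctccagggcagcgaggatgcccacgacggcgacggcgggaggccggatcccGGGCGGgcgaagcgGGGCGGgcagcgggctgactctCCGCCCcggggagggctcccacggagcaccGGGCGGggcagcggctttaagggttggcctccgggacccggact
The motifs were searched on both strands: the TATA box as TATAAA, the GC box bound by SP1 as GGGCGG, a STAT site as TTCNNNGAA and a pair of inverted heat shock half-sites as GAANNTTC. These occurred in 12.4%, 32.7%, 7.02% and 6.69% of 32851 promoter windows of the same length. Igfbp4 held a TATA box whose leftmost base lies 28 bases before the start, Igfbp2 held 3 GC boxes and Igfbp7 held 4. Igfbp5 held 1 pair of heat shock half-sites with its leftmost base 9 bases before the start. None of the matches shown overlapped another, and none of the 10 windows held the STAT letters. A match describes letters only, and factor binding was not measured.

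The binding protein Igfbp5 outweighed every other member. To compare genes, levels were divided by the length of their merged exons. Igfbp5 (ENSMUSG00000026185.8, chromosome 1, 72857932 to 72874884) then stood at 2006 ± 268 CPM per kb in KO (SD, n = 5) and 2421 ± 554 CPM per kb in WT (SD, n = 4). It ranked 12th of 14647 genes by mean level per kb in KO and 11th in WT, and took 1.06% to 1.43% of the gene fragments of a KO library and 1.09% to 1.81% of those of a WT library. Of the summed level per kb of the 6 binding proteins, Igfbp5 made up 98.2% to 98.8% in KO and 96.4% to 98.6% in WT.

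The remaining members were far lower per kb. Igf2r came next, with a mean of 37.5 CPM per kb in KO and 53.1 in WT, followed by Igfbp7 with 16.1 in KO and 30.4 in WT. Igfbp2, Igfbp3 and Igfbp4 averaged 4.73, 3.68 and 3.35 CPM per kb in KO and 9.42, 8.11 and 7.62 in WT, and their ranges over the libraries overlapped in each genotype. These WT means rested on WT 1: over WT 2 to WT 4 the means were 41.4 CPM per kb for Igf2r, 20.4 for Igfbp7, 5.96 for Igfbp2, 4.23 for Igfbp3 and 5.41 for Igfbp4, which puts Igfbp4 above Igfbp3. Igf1r averaged 2.27 CPM per kb in KO and 2.20 in WT. At the low end, Igf1 averaged 0.356 CPM per kb in KO and 0.504 in WT, and Igfbp6 0.323 in KO and 0.408 in WT, which did not differ from Igf1 beyond the spread between libraries. In both genotypes, with or without WT 1, Igfbp5 stood far above Igfbp7 and Igfbp7 above the other 4 binding proteins. The neighbours Igfbp2 and Igfbp5 lie tail to tail with 5458 bases between them, yet their levels per kb lay far apart.

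**Figure D1:**
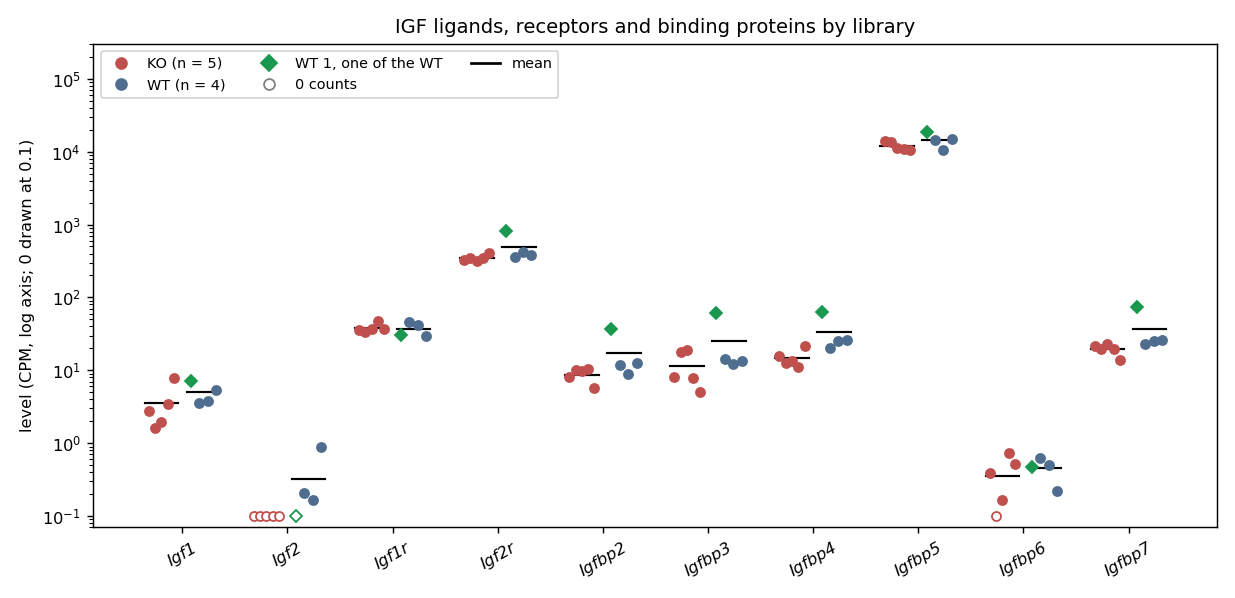
Level of each member in CPM (log axis) in every library, KO left of WT, with bars at the group means and open symbols for 0 counts. Igfbp5 lies at 10385 CPM or more in all libraries, and the diamond of WT 1 stands above all other libraries for Igf2r, Igfbp2, Igfbp3, Igfbp4, Igfbp5 and Igfbp7.

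None of the members was called between the genotypes. Of the 8 that passed the count filter, 0 had an adjusted p under 0.05 in edgeR, DESeq2 or limma-voom, against the 0.0886% called over all genes in edgeR. At an unadjusted p under 0.05, edgeR gave 3 members lower in KO, where 4.59% of all genes tested were, and 0 members higher, where 3.36% were. At the same threshold DESeq2 gave 5 lower, beside 5.00% of all genes, and limma-voom with sample weights gave 2, beside 4.86%. Negative log2 fold changes were found for 7 of the 8, against 50.0% of all genes, and their median was -0.70. Without WT 1 all 8 were negative, against 50.4% of all genes, but the median was -0.22 and 1 member, Igfbp4, had an unadjusted p under 0.05, where 3.33% of all genes did so with a lower level in KO. Milk protein markers summed to 2454 to 8029 CPM in KO, and to 16994 CPM in WT 1, 12223 CPM in WT 4 and 3377 and 5245 CPM in the other WT libraries. Without both WT 1 and WT 4, 1 member again had an unadjusted p under 0.05, Igfbp4 at -0.63 ± 0.25 (SE), where 3.32% of all genes did so with a lower level in KO.

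The ligand genes were scarce. Igf1 (ENSMUSG00000020053.18, chromosome 10, 87858265 to 87937042), which encodes the main growth-promoting ligand, stood at 2.76, 1.63, 1.97, 3.43 and 7.87 CPM in KO 1 to KO 5, against 7.21, 3.55, 3.82 and 5.37 CPM in WT 1 to WT 4. Of the KO libraries 4 lay below every WT library, while KO 5 was the highest of all 9. Its log2 fold change was -0.49 ± 0.44 (SE; adjusted p = 0.791 in edgeR) with a 95% interval of -1.46 to 0.49. Leaving out KO 5 gave -1.02 and leaving out WT 1 gave -0.26, neither past the threshold.

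KO 5 was also the KO library with the highest macrophage marker sum. The 14 macrophage markers summed to 385, 335, 276, 418 and 691 CPM in KO 1 to KO 5, against 829, 575, 525 and 799 CPM in WT 1 to WT 4. T and NK cell markers summed to 29.2 CPM in KO 5 and to 3.28 to 8.67 CPM in the other KO libraries. None of the markers of either list was at 0 in every library, and their part in the Igf1 values was not tested. In bulk tumor RNA, fewer cells of a type and less RNA per cell cannot be told apart.

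Igf2 (ENSMUSG00000048583.16, chromosome 7, 142650766 to 142666816), the imprinted fetal ligand, did not pass the count filter. It had 0 counts in every KO library, against 0, 1, 1 and 4 counts in WT 1 to WT 4, all too few for a fold change. The annotated gene Gm49394, itself at 0 counts, shares 3596 of the 5723 exon bases of Igf2 on the same strand, and fragments that fall in more than 1 gene are set aside as ambiguous in the layout of the deposited table. The level of Igf2 is therefore uncertain, and no comparison was made. H19, the noncoding RNA of the same imprinted locus, is also strongly expressed before birth and low in adult tissue. It averaged 3.47 ± 1.40 CPM in KO and 4.69 ± 2.17 CPM in WT (SD), with a log2 fold change of -0.42 ± 0.37 (SE; adjusted p = 0.783 in edgeR).

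The signalling receptor did not separate the genotypes. Igf1r (ENSMUSG00000005533.10, chromosome 7, 67952827 to 68233668) stood at 35.7, 33.1, 37.3, 47.7 and 37.3 CPM in KO 1 to KO 5, against 30.5, 45.6, 42.4 and 29.3 CPM in WT 1 to WT 4. The groups overlapped throughout, and WT 1 was among the lowest libraries. Its log2 fold change was 0.05 ± 0.17 (SE; adjusted p = 0.957 in edgeR) with a 95% interval of -0.32 to 0.41. Its sign turned with several alternatives, including the fit without WT 1 (-0.04). The related insulin receptor Insr, which can pair with IGF1R in hybrid receptors, had a mean of 178 ± 10.1 CPM in KO and 193 ± 48.8 CPM in WT, with a log2 fold change of -0.12 ± 0.16.

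The clearance receptor was lower in most KO libraries by an amount that rested on WT 1. Igf2r (ENSMUSG00000023830.14, chromosome 17, 12682406 to 12769664) stood at 322, 347, 319, 349 and 408 CPM in KO 1 to KO 5, against 819, 361, 417 and 379 CPM in WT 1 to WT 4. All KO libraries except KO 5 lay below the lowest WT library. The log2 fold change was -0.50 ± 0.23 (SE; adjusted p = 0.631 in edgeR), and -0.14 ± 0.12 without WT 1. Igf2r lies on the same chromosome as the deleted genes but at a distance from them. Airn, the imprinted antisense RNA that starts within Igf2r and silences its paternal copy in mice, had a log2 fold change of 0.21 ± 0.17. Per kb, Igf2r exceeded Igf1r by 16.3, 18.9, 15.4, 13.2 and 19.7 times in KO 1 to KO 5 and by 48.5, 14.3, 17.7 and 23.3 times in WT 1 to WT 4. The receptor balance was therefore alike in the KO libraries and in 3 of the WT libraries, with WT 1 apart.

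Igfbp4 showed the largest difference among the members. Its product mainly restrains IGF action until the protease PAPP-A cleaves it. Igfbp4 (ENSMUSG00000017493.12, chromosome 11, 99041244 to 99054392), whose promoter is shown above with its TATA box, stood at 15.6, 12.4, 13.5, 11.2 and 21.4 CPM in KO 1 to KO 5. The WT libraries had 62.8, 20.3, 25.3 and 26.2 CPM in WT 1 to WT 4. The groups overlapped only through KO 5, which exceeded WT 2. The mean was 14.8 ± 4.01 CPM in KO and 33.6 ± 19.6 CPM in WT (SD), a log2 fold change of -1.18 ± 0.32 (SE; unadjusted p = 0.00376 and adjusted p = 0.489 in edgeR). An exact permutation test of its log2 CPM over all assignments of the 9 libraries gave an unadjusted p of 0.0238, two-sided. Without WT 1 the change was -0.69 ± 0.21 with an adjusted p of 0.734 in edgeR, and the exact permutation p was 0.0536. Over the alternatives tried the adjusted p ran from 0.0869, with age as a covariate, to 0.931, and it was 0.0907 in DESeq2.

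Igfbp7 was the 1 member whose groups did not overlap. It encodes a secreted protein of vessel walls and stroma that binds IGFs weakly. Igfbp7 (ENSMUSG00000036256.13, chromosome 5, 77349240 to 77408041) stood at 21.7, 19.9, 22.7, 19.5 and 13.8 CPM in KO 1 to KO 5, against 73.3, 22.8, 25.1 and 26.0 CPM in WT 1 to WT 4. Every KO library lay below every WT library, as for 1.26% of all genes tested (the opposite held for 1.44%), but KO 3 and WT 2 differed by less than 1 CPM. The log2 fold change was -0.91 ± 0.33 (SE; adjusted p = 0.616 in edgeR), and -0.34 ± 0.17 without WT 1. The exact permutation p of 0.00794, two-sided and unadjusted, is the smallest that assignments of 9 libraries can give. It restates the separation of the groups and takes no account of the number of members or genes examined. Without WT 1 the exact permutation p was 0.0536, where the smallest possible is 0.0179. Polr2b on the opposite strand shares 85 of its 1209 exon bases, and the sources used here do not state whether counting used strand.

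Igfbp2 and Igfbp3 were set apart mainly by WT 1. Igfbp2 (ENSMUSG00000039323.18, chromosome 1, 72824503 to 72852474), which can bind integrins as well as IGFs, stood at 8.08, 9.94, 9.69, 10.3 and 5.64 CPM in KO 1 to KO 5, against 36.5, 11.7, 8.81 and 12.5 CPM in WT 1 to WT 4. Apart from WT 1 the groups lay close together, and WT 3 fell among the KO libraries. Its log2 fold change was -0.98 ± 0.39 (SE; adjusted p = 0.616 in edgeR), and -0.33 ± 0.24 without WT 1.

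Igfbp3 (ENSMUSG00000020427.11, chromosome 11, 7206086 to 7213923), the main IGF carrier of plasma, stood at 8.08, 17.9, 18.9, 7.76 and 4.96 CPM in KO 1 to KO 5, against 61.9, 14.2, 12.3 and 13.2 CPM in WT 1 to WT 4. The KO libraries fell on both sides of WT 2 to WT 4, and WT 1 was 3.28 times the next library. The log2 fold change was -1.12 ± 0.55 (SE; adjusted p = 0.642 in edgeR), and -0.19 ± 0.39 without WT 1. Its neighbour on chromosome 11, the liver binding protein gene Igfbp1, had 0 counts in all 9 libraries.

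The abundant Igfbp5 differed little. It stood at 13965, 13625, 11046, 11038 and 10572 CPM in KO 1 to KO 5, against 18518, 14386, 10385 and 14884 CPM in WT 1 to WT 4. The lowest library was WT 3 and the highest WT 1, with the KO libraries between them. The log2 fold change was -0.27 ± 0.19 (SE; adjusted p = 0.721 in edgeR) with a 95% interval of -0.70 to 0.15, and -0.13 ± 0.17 without WT 1. Igfbp6, which prefers IGF2, did not pass the count filter, with 10 counts over the KO libraries and 9 over the WT libraries.

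**Figure D2:**
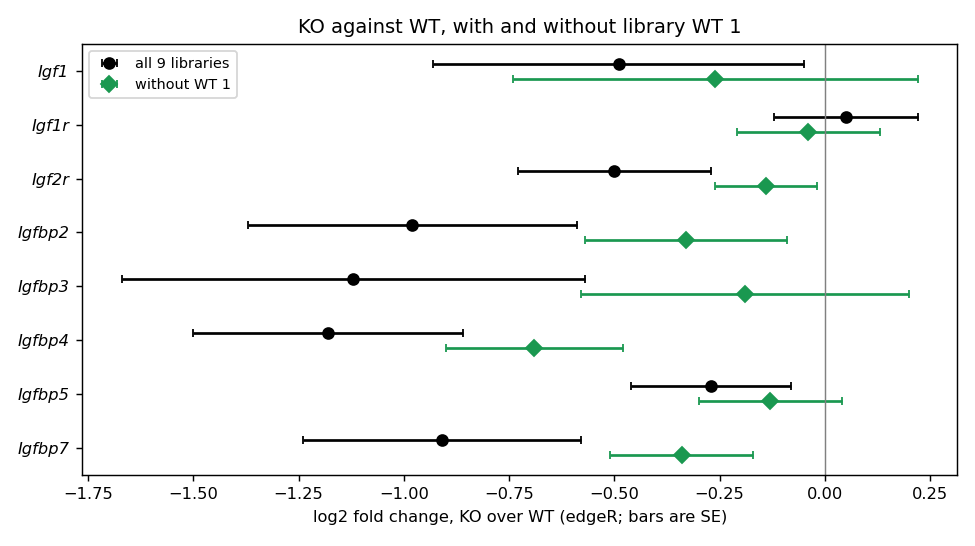
log2 fold change of the 8 tested members, KO over WT, from edgeR with SE bars, for all 9 libraries (circles) and without WT 1 (diamonds). Igfbp4 is at -1.18 with all libraries and at -0.69 without WT 1, and Igfbp3 at -1.12 and -0.19.

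Igfbp7 was the largest part of the binding protein level outside Igfbp5 in every library. The summed level of these 5 was 21.4 to 33.2 CPM per kb in KO and 34.9 to 38.6 CPM per kb in WT 2 to WT 4, with 115 CPM per kb in WT 1. Igfbp7 made up 53.5% to 62.3% of that sum in KO and 52.8% to 58.3% in WT. Igfbp2 made up 14.3% to 20.4% in KO and 13.4% to 18.2% in WT, and Igfbp3 7.40% to 18.9% in KO and 10.9% to 17.2% in WT. Among the KO libraries Igfbp4 had the widest range in percentage points, from 9.18% to 22.6%. In WT it ran from 12.4% to 16.1%, a narrower range than that of Igfbp3.

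Endothelial markers were high in WT 1, as were all binding proteins tested. WT 1 also had the highest macrophage, basal and myoepithelial, and milk protein sums, at 829, 338 and 16994 CPM. Of 13 endothelial markers 11 passed the count filter and 9 of those were highest in WT 1, as were 19.5% of all genes tested. The endothelial list summed to 71.5, 106, 92.8, 76.2 and 41.0 CPM in KO 1 to KO 5, against 191, 91.5, 89.7 and 99.6 CPM in WT 1 to WT 4. Low Igfbp3 and low endothelial markers coincided in KO 5, and high values of both in WT 1. All 11 tested endothelial markers had negative log2 fold changes. Their median was -0.73 with all libraries and -0.25 when WT 1 was left out.

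The median fold change of the fibroblast list was negative with and without WT 1, as were those of several other lists. The list of 12 summed to 350 to 711 CPM in KO and 821 to 1159 CPM in WT, and the highest was WT 4 rather than WT 1. These sums did not overlap, and of single genes tested 1.26% had every KO library below every WT library. Collagen genes weighed most in them: Col1a1, Col1a2 and Col3a1 averaged 153, 90.9 and 151 CPM in KO and 319, 198 and 254 CPM in WT. Of the 11 tested markers 10 had negative log2 fold changes. Fap was the exception at 0.35, and Pdgfra stood at -0.20, and at 0.03 without WT 1. The median log2 fold change of the fibroblast list was -0.75, and -0.50 without WT 1, with 6 of 11 tested markers highest in WT 1. Pericyte and smooth muscle markers summed to 339 to 480 CPM in KO and 386 to 587 CPM in WT, with WT 1 at 473 CPM. Their median log2 fold change was -0.39, and -0.41 without WT 1. In the same order the medians were -0.61 and -0.57 for macrophage and -0.47 and -0.33 for luminal epithelial markers. Milk protein markers had -3.32 and -2.69. Basal and myoepithelial markers had 0.12 and 0.29, and skeletal muscle markers 0.52 and 0.36. No marker of these lists was at 0 in every library. The part of cell composition in the values of the binding proteins was not tested.

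**Figure D3:**
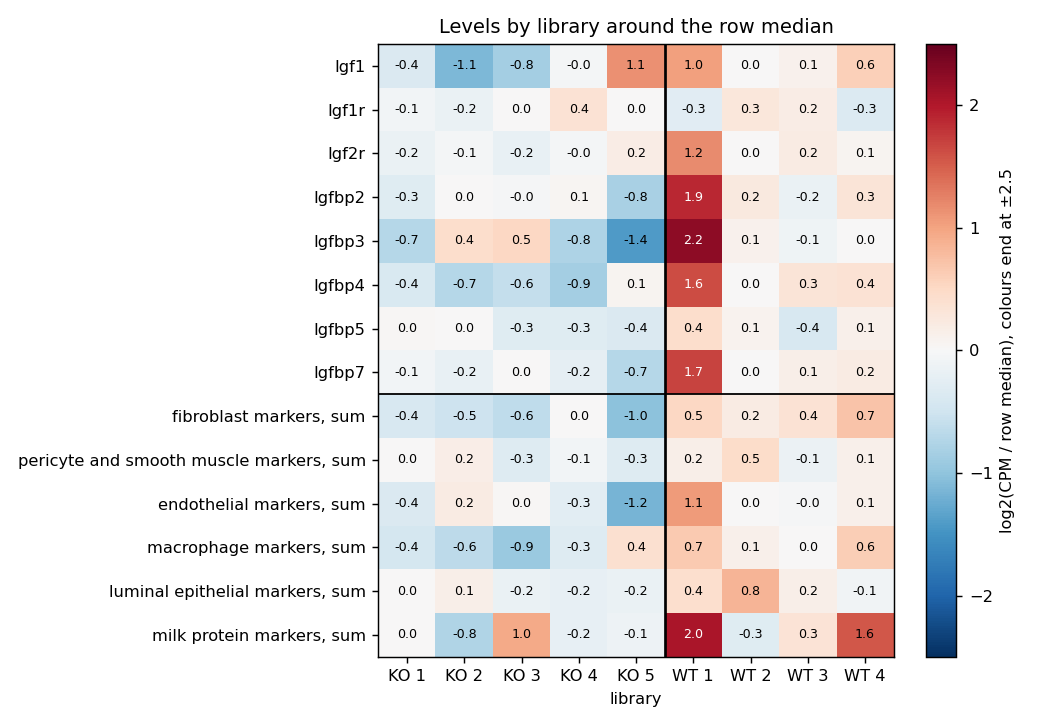
Level of each tested member and summed level of marker lists in each library as log2 of CPM over the row median, KO libraries left of the line and WT libraries right of it. WT 1 is high for Igf2r, Igfbp2, Igfbp3, Igfbp4 and Igfbp7 and for endothelial and milk protein markers, and KO 5 is high for Igf1. The macrophage marker sum of KO 5, 691 CPM, is the highest among the KO libraries only. It lies below those of WT 1 and WT 4, at 829 and 799 CPM.

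The genes whose pattern over the 9 libraries came nearest to Igfbp4, Igfbp7 and Igfbp2 were also high in WT 1. This followed from choosing them by likeness to members that were high there, and is no separate result. Nearness was the mean absolute difference of centred log2 CPM, over 12450 genes. For Igfbp7 these were Fbn1 (0.13), Postn (0.15) and Lrg1 (0.15), which encode fibrillin 1, the matricellular protein periostin and a secreted glycoprotein. For Igfbp2 they were the water channel gene Aqp1 (0.14), Fbn1 (0.16) and biglycan, Bgn (0.18). For Igfbp4 they were the calcium channel gene Orai1 (0.17), the receptor for platelet activating factor Ptafr (0.19) and the sphingosine phosphate receptor S1pr1 (0.21). Fbn1 stood at 29.2 to 46.4 CPM in KO, while WT 1 had 132 CPM and WT 2 to WT 4 had 49.7 to 61.5 CPM.

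Genes that control IGF availability gave 0 calls, beside 0.0886% of all genes. Of 11 such genes 5 passed the filter, all with negative fold changes, as for 50.0% of all genes tested. Without WT 1, however, Stc1 and Adam12 turned positive, at 0.36 and 0.17. In edgeR 1 gene had an unadjusted p under 0.05, where 4.59% of all genes did so with a lower level in KO. That gene was Igfals (chromosome 17, 24865997 to 24882010), for the acid-labile subunit that holds IGF complexes in plasma. It lies on the same chromosome as the deleted genes, of which Hspa1b starts at base 34956436. The part of this position in its values was not tested. Igfals stood at 15.4, 12.9, 20.0, 20.4 and 9.23 CPM in KO 1 to KO 5, against 44.4, 19.9, 17.6 and 54.8 CPM in WT 1 to WT 4. WT 1 and WT 4 were high and WT 2 and WT 3 lay among the KO libraries. The log2 fold change of Igfals was -1.13 ± 0.35 (SE; adjusted p = 0.613 in edgeR), and -0.97 without WT 1.

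The PAPP-A system was sparse or variable. Pappa, for the protease that cleaves IGFBP4 and IGFBP5, did not pass the filter and had 71 counts over the KO libraries, 42 of them in KO 3, and 41 over the WT libraries. Its inhibitor genes Stc1 and Stc2, the stanniocalcins, had log2 fold changes of -0.05 ± 0.34 and -0.20 ± 0.90 (SE). Stc2 ran from 44.6 to 288 CPM in KO and from 25.4 to 489 CPM in WT. The protease genes Htra1 and Adam12 had log2 fold changes of -0.44 ± 0.35 and -0.05 ± 0.33.

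Receptor adaptors and the PI3K-AKT arm lay close to 0. All 19 genes of the PI3K-AKT-FOXO list were tested. They include Pdk1, for a pyruvate dehydrogenase kinase, which is not part of this arm. None was called, beside 0.0886% of all genes, and none had an unadjusted p under 0.05, where 7.95% of all genes did. The median log2 fold change of the 19 was -0.06, with the nearest to a difference being Tsc1 at 0.24 ± 0.12 (SE; adjusted p = 0.646 in edgeR), a brake on mTOR. Pdpk1 and Foxo4 had -0.16 ± 0.11 and -0.20 ± 0.16. Of 11 listed insulin receptor relatives and adaptors 8 were tested, with 0 calls and none with an unadjusted p under 0.05. Grb2, Grb14 and Grb10, adaptors that bind activated receptors or their substrates, had -0.10 ± 0.12, 0.14 ± 0.17 and -0.18 ± 0.24.

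The remaining lists gave 0 calls and no unadjusted p under 0.05 in edgeR, beside 0.0886% and 7.95% of all genes. With so few genes tested, counts of 0 lie near these shares. All 9 genes of the growth hormone and STAT5 arm were tested, with a median of -0.13. Socs2, a STAT5 target that restrains growth hormone signalling, had -0.34 ± 0.18 (SE; adjusted p = 0.661 in edgeR), and Socs3, Stat5a and Jak2 had -0.25 ± 0.19, -0.41 ± 0.40 and -0.23 ± 0.25. Of 8 genes with domains related to the IGFBPs, mainly CCN genes, 6 were tested, with a median of -0.22. Ccn5 and Ccn4 had -0.56 ± 0.32 and -0.76 ± 0.47, and Htra3 and Kazald1 -0.34 ± 0.39 and 0.21 ± 0.36. Of 7 genes of imprinted loci and IGF2 mRNA-binding proteins 4 were tested. Igf2bp2 stood at 0.71 ± 0.66 and Plagl1 at -0.02 ± 0.20.

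**Figure D4:**
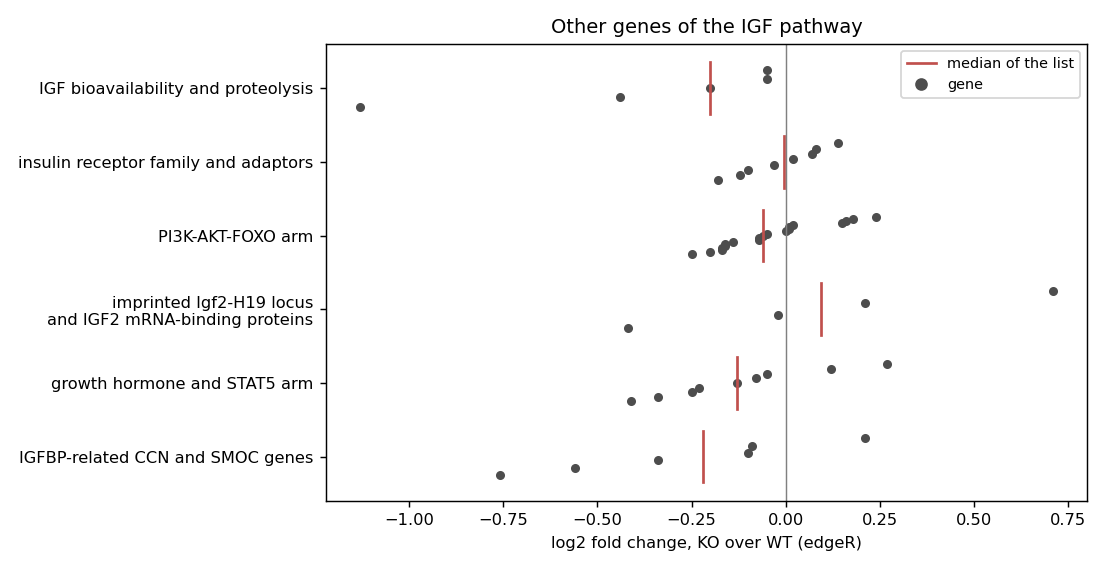
log2 fold change, KO over WT, of every tested gene in 6 lists of the IGF pathway outside the 10 members, with the list medians as bars. Igfals at -1.13 is the gene farthest from 0, and the 19 genes of the PI3K-AKT-FOXO list lie between -0.25 and 0.24.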

How the data were processed

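RNA sequencing counts of 9 tumor libraries were used. The submitters' processing notes name STAR 2.5.4a, the build GRCm38, FastQC 0.11.5 and Trimmomatic 0.36. The sources used here state neither their order and settings nor the annotation release and the strand setting. Per the labels' protocols, RNA was ribosome-depleted and libraries were stranded. The deposited values are unnormalized counts per gene. Entries that name no gene (unmapped 11.0% to 27.1%, multimapped 5.50% to 9.53%, no feature 34.0% to 50.4%, ambiguous 0.971% to 1.23% of fragments) were left out of library sizes and tests. Of 55401 gene IDs 55141 matched GENCODE M21 (GRCm38), which gave symbols, positions and exon lengths.

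KO and WT were compared with edgeR 4.0.16 in R 4.3.3 (glmQLFit, glmQLFTest, TMM factors, filterByExpr, genotype alone), with Benjamini-Hochberg adjustment over the 14665 genes tested, two-sided. The SE is the size of the log2 fold change over the square root of F. CPM uses the totals of tested genes times TMM factors. Exact permutation used log2 CPM with a prior count of 2. On data simulated for KO against WT, with 200 of 14665 genes changed, edgeR recovered 106 at 2-fold with 7 false calls and 189 at 4-fold with 13. Alternatives were DESeq2 1.42.0, limma-voom (limma 3.58.1), other scaling and filters, the sample number as a block, age, and libraries left out. Members and lists were chosen with earlier results of these data known. Named were all members, up to 4 genes of each pathway list by smallest p, H19, Igfbp1, Pappa, Stc1, Stc2 and Igfals, 3 genes nearest in pattern to each of the 3 members with the smallest p, and the targeted genes. 1 gene that this rule names is not reported here. Marker lists describe the libraries.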

Additional observations from a re-analysis of the deposited data

Results flagged for a closer look

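Among 90 group values examined, 14 had a library whose gap to its nearest neighbour took an unusually large share of the group's range. Chance flags about 1 in 20 groups, and 7 of the 14 were in WT 1.

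In KO, Igf1 stood apart in KO 5 with a gap over the range of 0.711, and so did the summed T and NK cell markers with 0.793. KO 4 stood apart for Igf1r (47.7 CPM, with 33.1 to 37.3 CPM in the other KO libraries), at 0.712. Grb14 was lowest in KO 5 (13.8 CPM, others 18.8 to 20.0), at 0.795, and Jak2 highest in KO 2 (155 CPM, others 97.8 to 100), at 0.953.

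In WT, with WT 1 at the top, the gap over the range was 0.877 for Igf2r, 0.866 for Igfbp2, 0.961 for Igfbp3, 0.861 for Igfbp4 and 0.937 for Igfbp7. Stc1 (8.37 CPM in WT 1, with 2.93 to 3.82 CPM in the other WT libraries) had 0.836, and the summed endothelial markers had 0.902. WT 2 was the highest WT library for Stc2 (489 CPM, others 25.4 to 38.6), at 0.972, and Igf2bp2 (3.76 CPM, others 0.465 to 0.997), at 0.839.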

How the results depend on the processing

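No member was called under any of 18 alternatives, and 138 of 143 recomputed fold changes of members kept their sign. The 5 that changed were all of Igf1r: -0.04 with limma-voom, -0.21 without WT 1 and WT 4, and 3 of 9 fits that left out 1 library, where it ranged from -0.06 to 0.16. The number of genes called over the whole table was 13 in edgeR, 68 in DESeq2 (38 lower, 30 higher), 29 with no count filter, 6 when a mean count of 50 was required and 6 to 13 with 1 library left out. It was 6 to 8 without KO 1, KO 2, KO 4, KO 5, WT 2 or WT 3, and the cause of these shifts was not tested. Leaving out WT 1 gave the smallest size among such fits for Igf2r (-0.14), Igfbp2 (-0.33), Igfbp3 (-0.19), Igfbp4 (-0.69), Igfbp5 (-0.13) and Igfbp7 (-0.34). Same-numbered KO and WT libraries had correlations of deviations of -0.02 to 0.38, over 0.1 in 3 of 4 pairs and highest for the own number in 3 of 4. This is a hint of pairing, but the labels give the numbers no meaning and 1 pair was not over 0.1. With the number as a block, a fit in which KO 5 has no partner and adds nothing, 10 genes and 0 members were called, and Igf1 stood at -1.02 (adjusted p = 0.383 in edgeR), Igfbp2 at -0.64 (0.573) and Igfbp3 at -0.63 (0.704). With age as a covariate 10 genes and 0 members were called, and the fold changes of all 8 tested members were larger in size. Igf2r stood at -0.70, Igfbp2 at -1.16, Igfbp3 at -1.47, Igfbp4 at -1.56 and Igfbp7 at -1.16. Levels per kb under other scalings stayed within 1 SD in all 40 cases. Counts of 0 to 4 limit Igf2 and Igfbp6, and Igf1 fell under the filter of 50.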

Other observations

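Several of the genes nearest in pattern to Igf1 and Igfbp3, chosen after their values were seen, are known as markers of particular cell types. For Igf1 they were Ms4a6b (mean absolute difference of centred log2 CPM 0.20 over the 9 libraries), Cd68 (0.21), a lysosomal glycoprotein of macrophages, and Tlr8 (0.21), an endosomal RNA sensor of myeloid cells. Cd68 ranged from 11.1 to 31.1 CPM in KO and from 16.1 to 25.5 CPM in WT. For Igfbp3 they were Kdr (0.22), the VEGF receptor of endothelium, Ptprb (0.23), an endothelial phosphatase, and Cdh5 (0.32), the cadherin of endothelial junctions. Cdh5 ran from 2.56 to 10.5 CPM in KO, while WT 1 had 25.1 CPM and WT 2 to WT 4 had 6.48 to 7.83 CPM. Igfbp5 differed from these in its nearest genes, which were Cptp (0.07), Lrig1 (0.08) and Nucb1 (0.08), a lipid transfer protein, a negative regulator of receptor tyrosine kinases and a calcium-binding protein of the Golgi. These likenesses are descriptions over libraries that share WT 1 as an extreme, with no test.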
